A study of Schizosaccharomyces pombe with 4 samples.

Results

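The genes described here are those of fission yeast (Schizosaccharomyces pombe) whose symbol begins with utp, nop or rrp followed by a digit, and the measurement is chromatin immunoprecipitation of the kinase Cdk11 read on tiling arrays. The symbols were taken from the annotation of the ASM294v3 assembly, which holds 53 such genes among 5113 coding genes. Chromosome I was used below 3.7 Mb only, where the probe positions matched the assembly, and this left 50 of the 53 and 4346 of the 5113. The genes rrp12, rrp16 and rrp17 lie beyond that point and were not analysed here.

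All cells were of 1 group, labelled as wild-type and carrying Cdk11 fused to an HA epitope tag, grown at 32 °C in YES, a rich medium, to mid-log phase. They were fixed in 3% formaldehyde for 10 min, and the chromatin was sheared to about 500 bp. The tagged protein was precipitated with an anti-HA monoclonal antibody (clone 16B12), and after ligation-mediated PCR the recovered DNA was hybridised beside input DNA of the same genotype. There were 2 independent immunoprecipitations, each on 2 arrays, with replicates 1 and 3 from the first and replicates 2 and 4 from the second. Errors below are therefore SDs over n = 2 immunoprecipitations. No untagged or mock precipitation was analysed here, so no value has a background of its own.

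Ribosome biogenesis begins in the nucleolus, where RNA polymerase I makes a long precursor RNA. The Utp proteins and the U3 small nucleolar RNP assemble on its front part into the small subunit processome, which folds and cleaves it. Box C/D RNPs built around Nop56 and Nop58 guide methylation of the RNA, other Nop and Rrp proteins assemble the large subunit, and the RNA exosome trims and degrades processing intermediates. Genes of this pathway are transcribed by RNA polymerase II, as are the ribosomal protein genes, which are among the most strongly transcribed genes of growing yeast. Cdk11 is a cyclin-dependent kinase linked to RNA polymerase II transcription in several organisms.

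The symbols gather different functions. Most members encode pre-ribosomal RNA processing or assembly factors or exosome subunits, but rrp1 is annotated as an ATP-dependent DNA helicase and rrp2 as a DNA translocase and SUMO-targeted ubiquitin ligase, and neither product name refers to ribosome biogenesis. They were kept because the symbol selects them, and they are given apart from the other roles.

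Each gene's value is the mean of log2(Cy3/Cy5) over the probes in its coding span and 500 bp on either side, after each array was centred on its median probe, so 0 is the median probe and not an absence of the protein. The labels assign the immunoprecipitate to Cy3 and input to Cy5, whereas the deposited ratios run as Cy5 over Cy3, and the dyes were never exchanged between arrays. It could not be settled which direction is immunoprecipitate over input. Values are therefore stated as higher in Cy5 (negative) or higher in Cy3 (positive), with no statement on where Cdk11 is enriched. A call is an adjusted p under 0.05 in limma's moderated test against 0, with Benjamini-Hochberg adjustment over all genes measured. This test draws each gene's spread toward that of all genes. The weight of the common spread was 1589 degrees of freedom over the window and 15.9 over the coding span. A gene's own SD therefore had almost no part in its window p, which follows the size of the mean.

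Promoter sequences are shown first for 4 genes, since the members are set beside ribosomal protein genes below. HomolD and HomolE are elements known from ribosomal protein promoters in S. pombe. The sequences run from 250 bases before to 50 bases after the annotated transcript start, from RefSeq's ASM294v3, 5′ to 3′ on the gene's own strand, and capitals mark the elements found. The first is nop58 at chrI:876638-876937 (plus strand) and the next nop2 at chrII:3676575-3676874 (minus strand), the members with the lowest values. The third is rlp7 at chrI:1712535-1712834 (plus strand), a large subunit assembly gene outside the utp, nop and rrp symbols, and the last is rps2 at chrIII:2095987-2096286 (minus strand), the ribosomal protein gene with the lowest value among those with both elements.
nop58: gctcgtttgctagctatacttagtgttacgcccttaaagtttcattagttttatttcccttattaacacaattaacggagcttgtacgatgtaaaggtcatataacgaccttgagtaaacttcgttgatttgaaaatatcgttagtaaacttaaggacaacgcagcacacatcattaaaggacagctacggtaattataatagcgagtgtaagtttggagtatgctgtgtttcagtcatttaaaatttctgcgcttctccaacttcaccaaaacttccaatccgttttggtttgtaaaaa
nop2: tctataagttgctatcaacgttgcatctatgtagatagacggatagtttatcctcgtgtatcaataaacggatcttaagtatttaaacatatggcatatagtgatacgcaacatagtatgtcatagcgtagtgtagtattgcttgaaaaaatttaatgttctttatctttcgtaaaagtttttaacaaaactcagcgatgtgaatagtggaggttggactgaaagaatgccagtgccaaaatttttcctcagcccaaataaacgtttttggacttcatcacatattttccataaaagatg
rlp7: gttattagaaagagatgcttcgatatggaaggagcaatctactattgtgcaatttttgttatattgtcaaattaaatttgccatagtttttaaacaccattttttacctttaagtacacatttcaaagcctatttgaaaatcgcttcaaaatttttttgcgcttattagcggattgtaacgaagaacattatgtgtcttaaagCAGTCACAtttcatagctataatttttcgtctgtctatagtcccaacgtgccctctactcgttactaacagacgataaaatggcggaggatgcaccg
rps2: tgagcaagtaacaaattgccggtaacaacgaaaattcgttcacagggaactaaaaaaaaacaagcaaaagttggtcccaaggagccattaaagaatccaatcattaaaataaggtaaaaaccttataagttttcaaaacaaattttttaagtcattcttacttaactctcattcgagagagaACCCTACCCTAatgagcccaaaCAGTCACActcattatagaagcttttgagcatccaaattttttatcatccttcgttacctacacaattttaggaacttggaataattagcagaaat

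HomolD was searched as CAGTCACA and HomolE as the longer string that stands in capitals ahead of it in rps2, both exact and on both strands, and the 2 strings do not overlap there. No member promoter held either string, 0 of 53 for each. HomolD was found in 88 of 141 ribosomal protein promoters (62.4%), in 3 of 102 promoters of other ribosome biogenesis genes (mpp10, rlp7 and rpa49), and in 137 of all 5113 (2.68%). HomolE was found in 34 of 141 ribosomal protein promoters (24.1%), in 0 of the 102 and in 52 of all 5113 (1.02%). Both strings together were found in only 17 of the 141 ribosomal protein promoters, and in 21 of all 5113. In rps2 the HomolE string begins 68 bases and the HomolD string 46 bases before the transcript start, and in rlp7 the HomolD string begins 47 bases before it. The absence of a string says only that these letters are not in this stretch.

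As a group the members lay close to the median probe. Over the coding span and flanks, the 50 members had a median of −0.04, and −0.07 and −0.02 by immunoprecipitation, against −0.01 over the 4277 genes measured. Member values ran from −0.75 (nop58) to 0.34 (rrp7), and 48 of 50 lay within 0.5 of 0, as did 91.9% of all genes. Of the members 31 (62.0%) were below 0, against 52.6% of all genes. Called were 2 of 50, nop58 and nop2, both higher in Cy5, or 4.0%, and the background of such calls was 7.53% of all genes. No member was called higher in Cy3, where the background was 1.85%, and 5 members (10.0%) passed an unadjusted p under 0.05 in either direction, against 19.3% of all genes. With a loess fit within arrays the members' median was −0.13 (all genes −0.05) and 39 of the 50 were below 0. Among all genes 2554 of 4277 were then below 0. When each array was centred on its mode, the median of all genes itself moved to −0.16 and that of the members to −0.18. All 4 arrays were below 0 for 8 members (16.0%) and for 17.3% of all genes, and above 0 for 4 members (8.0%) and for 10.5% of all genes.

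**Figure D1:**
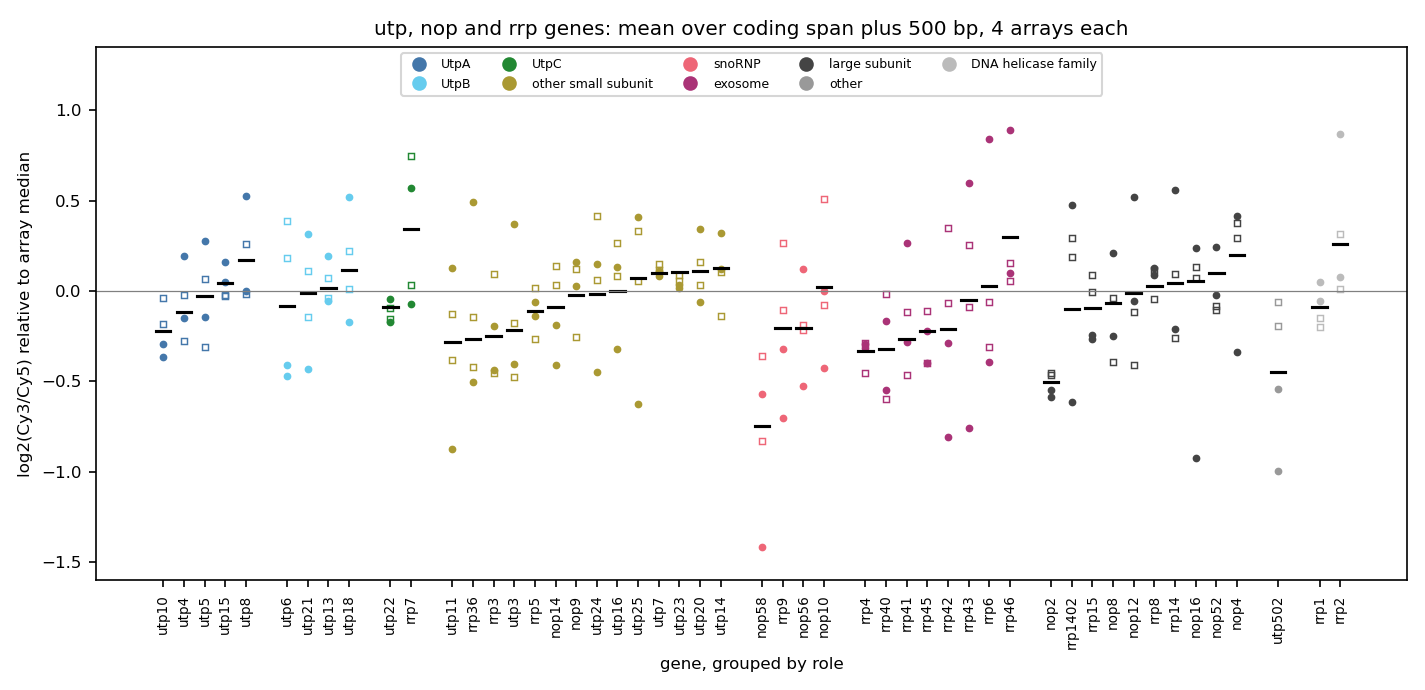
Window means of log2(Cy3/Cy5) relative to the array median (y axis) for the 50 members, grouped by role and sorted within a role (x axis). Filled circles are replicates 1 and 3 (first immunoprecipitation), open squares replicates 2 and 4 (second), and black bars the mean over the immunoprecipitations; most bars lie within 0.5 of 0, and nop58 is the lowest at −0.75.

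The ribosomal protein genes, whose products the members help to assemble, had a different distribution on the same arrays. Of 123 measured, 88 were called higher in Cy5 and their median was −0.64, and 122 lay below 0. Other ribosome biogenesis genes, from a list of other symbols chosen mainly for RNA polymerase I subunits, snoRNP proteins and assembly factors, numbered 115 symbols, of which 102 are in the annotation and 90 could be measured. Of these 7 were called higher in Cy5 (7.78%, against the 7.53% of all genes), with a median of −0.08. The annotation gives 3 of the 90 other functions: drs1 is a tRNA ligase, dim1 a spliceosomal tri-snRNP subunit and lsg1 a subunit of the Lsk1 complex. None of these 3 was called, and without them 7 of 87 were, with a median of −0.08. Over the 4 other scalings tried, the median of the ribosomal protein genes ran from −0.80 to −0.45 and that of the other ribosome biogenesis genes from −0.23 to −0.10. These are counts and medians with no test over a list.

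**Figure D2:**
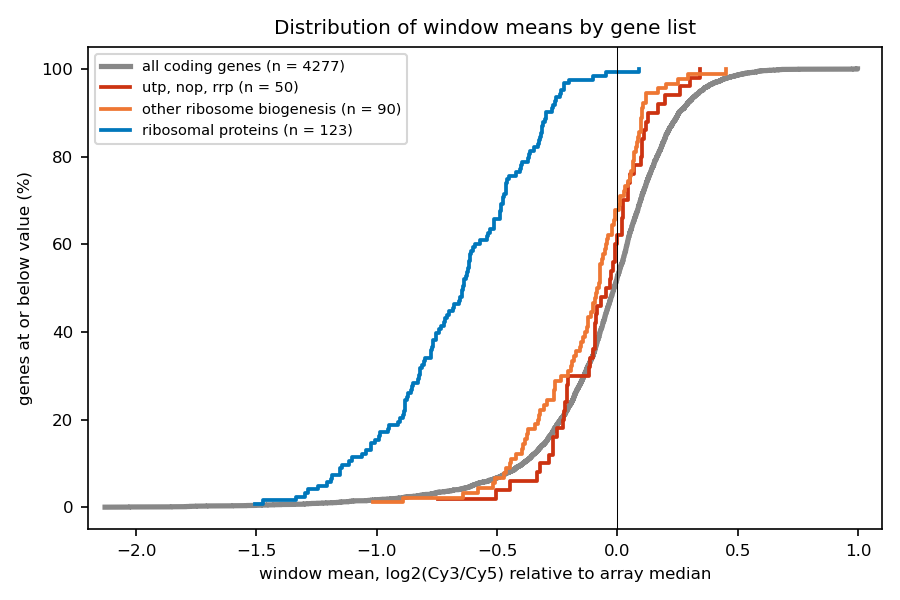
Cumulative share of genes (y axis, %) at or below a window mean of log2(Cy3/Cy5) relative to the array median (x axis), for all coding genes, the members, other ribosome biogenesis genes and ribosomal protein genes. The curve of the members follows that of all genes around 0 and ends at 0.34, and the curve of the ribosomal protein genes is displaced to lower values, with its median at −0.64.

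The lowest member was nop58, which encodes a core protein of box C/D snoRNPs including U3. Its window mean was −1.42 and −0.57 on the 2 arrays of the first immunoprecipitation and −0.83 and −0.36 on those of the second. All 4 arrays were on the Cy5 side, and replicate 1 was the lowest. The mean over the immunoprecipitations was −0.75 ± 0.22 (SD, n = 2), 1.68-fold higher in Cy5, with an adjusted p of 0.000212 (limma), and 144 of the 4277 genes were lower. An array's value is taken over the spots kept on that array, so array values need not average to the mean exactly. The coding span of nop58 is chrI:876947-878582 on the plus strand, in 3 coding exons. By their listed positions all 5 of its probes are centred in exons. Over the coding span the value was −0.83 in both immunoprecipitations, with an adjusted p of 0.0128.

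Probe by probe, nop58 was not level. The upstream probe nearest the start codon, centred at −121.5 bp from it, stood at 0.75 and 0.45 in the first and second immunoprecipitation, on the Cy3 side. Its arrays differed, at 0.1, −0.2, 1.4 and 1.1 in the order of replicates 1 to 4. The median of all genes upstream was also on the Cy3 side, at 0.11. All 5 coding probes were below 0 in both immunoprecipitations, with means from −1.10 to −0.46. Both probes after the stop codon had means of −1.16 and −1.79, the lowest of the 9 probes. By their listed positions, which are approximate, they lie in the annotated 3′ untranslated region. The 500 bp downstream gave −1.48 ± 0.76 (SD, n = 2), with an adjusted p of 0.060. Upstream minus coding span was 1.02 ± 0.23 for nop58, the highest such difference among the members, with an adjusted p of 0.257. No other coding gene covers any of the 9 probes.

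The other called member was nop2, which encodes an RNA methyltransferase, known in budding yeast for large subunit assembly. Its window mean was −0.59 and −0.55 on the first immunoprecipitation's arrays and −0.46 and −0.46 on the second's. The arrays were close to each other, unlike those of nop58. The mean was −0.50 ± 0.08 (SD, n = 2), 1.42-fold higher in Cy5, with an adjusted p of 0.0311, and 284 genes were lower. The coding span, chrII:3674751-3676577 on the minus strand, is a single coding exon. Its 7 probes were all below 0 in both immunoprecipitations, with means from −1.18 to −0.24 and a coding-span value of −0.62 at an adjusted p of 0.0769. The upstream probe nearest the start codon stood at 0.44 and 0.41, on the Cy3 side, as did the median of all genes upstream (0.11). Its arrays read 0.80, 0.45, 0.09 and 0.36 in the order of replicates 1 to 4. Of the 11 window probes, 1 lies inside the neighbouring gene spt16, and without it the value was −0.46 and the call was lost.

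Calls of both genes moved with the processing. For nop58 the call held in 15 of 17 alternatives, with values from −1.03 to −0.37 in limma, and was lost with the deposited values (−0.37, adjusted p = 0.0757) and without replicate 3 (−1.03, adjusted p = 0.0994). For nop2 it held in 5 of 17, with values from −0.65 to −0.31 and adjusted p from 0.0161 to 0.410. It was lost whichever array was left out, though the value then stayed between −0.51 and −0.50. Some alternatives counted here could not move the value. Asking for at least 1 or at least 3 probes left the probes of both genes unchanged, so only the adjusted p moved. Leaving out probes inside other genes likewise left nop58 unchanged. Spot brightness is the mean log2 of both dyes, so a gene higher in Cy5 is brighter in part through its own ratio. Over nop58 the median probe read 5911 to 9395 in Cy5 and 5253 to 6632 in Cy3. The array medians were 2889 to 4862 and 5097 to 6341. An effect of brightness apart from the ratio was not tested. The log ratio correlated with brightness over probes at r = −0.64, −0.47, −0.55 and −0.63 on replicates 1 to 4, and the mean log2 brightness was 12.57 for nop58, 12.41 for nop2, 12.10 for the median member, 12.13 for the median gene and 12.46 for the median ribosomal protein gene. A loess fit, which removes the trend with brightness, left nop58 at −0.39 (limma adjusted p = 0.0232) and nop2 at −0.31 (uncalled).

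**Figure D3:**
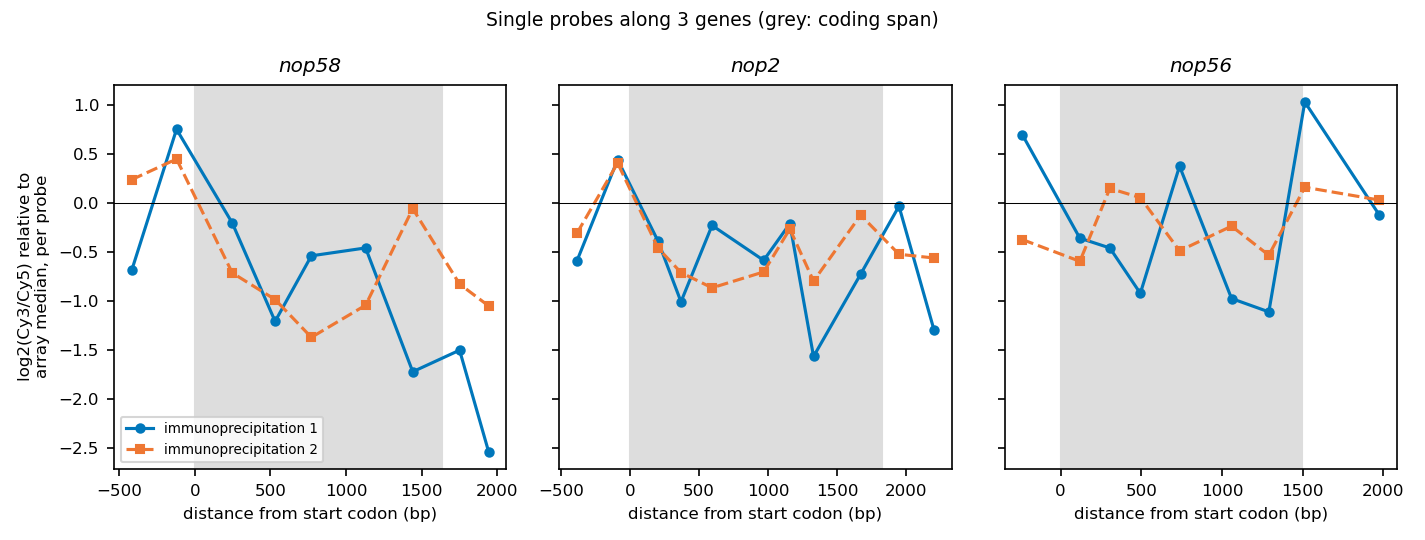
Single probes along nop58, nop2 and nop56, with distance from the start codon in bp (x axis) and log2(Cy3/Cy5) relative to the array median (y axis). Circles are the first and squares the second immunoprecipitation, each the mean of its arrays, and the grey band is the coding span; the coding probes of nop58 and nop2 lie below 0 in both, and those of nop56 do so in 3 of 6.

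The remaining snoRNP members were not called. Of the other list, fib1 (fibrillarin) and snu13 (a U3 snoRNP-associated protein) had −0.82 and −0.85 over the coding span. Both were called there (limma adjusted p = 0.0153 and 0.0127) and not over the window (0.134 and 0.164). The H/ACA gene gar1 was called over the window only, and the assembly factor gene naf1, at 0.31 over the coding span, was called in neither. The partner of Nop58 in the box C/D RNP is Nop56, and nop56 had −0.53 and 0.12 on the first immunoprecipitation's arrays and −0.19 and −0.22 on the second's. Its window mean was −0.20 in each immunoprecipitation, and over the coding span it was −0.42 with an adjusted p of 0.279. Its 6 coding probes all had means below 0, of which 3 were below 0 in both immunoprecipitations. The gene of the U3-specific protein, rrp9, had −0.21 ± 0.41, with the immunoprecipitations at −0.50 and 0.08. The gene of the H/ACA snoRNP protein, nop10, had 0.02 ± 0.27 over 3 probes and no coding-span value. The difference between nop58 and nop56 was not tested.

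Counted without the snoRNP genes above, which include the called U3 snoRNP protein gene nop58, no small subunit processome member was called over the window. The 25 members of this kind had a median of −0.02, and 15 were below 0. In the UtpA complex, which binds the start of the precursor RNA, the 5 genes ran from −0.22 ± 0.16 (utp10, all 4 arrays below 0) to 0.17 ± 0.08 (utp8). In UtpB the 4 genes ran from −0.08 ± 0.52 (utp6) to 0.12 ± 0.05 (utp18). The immunoprecipitations disagreed in sign for utp6, with −0.45 and 0.29. In UtpC, which in budding yeast contains casein kinase, the 2 genes were utp22 at −0.09 ± 0.005 and rrp7 at 0.34 ± 0.06, the highest member. The arrays of rrp7 read −0.07 and 0.57 in the first immunoprecipitation and 0.03 and 0.75 in the second, so within each the arrays differed by more than the mean, and its adjusted p was 0.220. Among the other 14 factors utp11 was lowest, at −0.28 ± 0.13 with arrays from −0.88 (replicate 1) to 0.13 (replicate 3), and rrp36 came next at −0.27 ± 0.05 with arrays from −0.51 to 0.49. The highest of the 14 was utp14, at 0.13 ± 0.20 with arrays from −0.14 to 0.32. In each of these 3 genes the arrays fell on both sides of 0. The smallest range over arrays among the members was that of utp7, with arrays from 0.08 to 0.15 and a mean of 0.10 ± 0.05. The gene with the most probes, utp20, gave 0.11 ± 0.02 over 34 probes.

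None of the exosome genes was called over the window. The 8 genes had a median of −0.22 (−0.35 to −0.11 over 4 other scalings), 6 were below 0, and the coding-span median of 7 was −0.09. The cap subunit genes rrp4 and rrp40, whose products bind RNA at the entry of the ring, had −0.33 ± 0.06 and −0.32 ± 0.01. Each was below 0 on all 4 arrays, at −0.31, −0.46, −0.30 and −0.29 for rrp4 and at −0.55, −0.60, −0.17 and −0.02 for rrp40 in the order of replicates 1 to 4, and the adjusted p were 0.244 and 0.273. The ring subunit gene rrp45 had −0.22 ± 0.05 and was also below 0 on all 4 arrays. The ring subunit gene rrp46 was on the other side, at 0.30 ± 0.28 over 3 probes, of which replicate 1 gave 0.89 and the other arrays 0.06 to 0.16. The ring subunit gene rrp41 had −0.27 ± 0.03 over 4 probes, and its parts differed, with −1.20 upstream and 0.26 over the 2 coding probes. Its arrays read −0.28, −0.12, 0.26 and −0.46 in the order of replicates 1 to 4, and with loess its window value was 0.01. Upstream minus coding span was −1.45 ± 1.12 for rrp41, the lowest among the members, with an adjusted p of 0.154. With other processing its coding span was called higher in Cy3 in 4 of 16 alternatives, with values from 0.81 to 0.88.

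Large subunit genes lay on both sides of 0. The 10 had a median of 0.01, 5 were below 0, and the range was −0.50 (nop2) to 0.20 ± 0.20 (nop4, which encodes an RNA-binding protein). This centre depended on the scaling, and with the loess fit the median was −0.23 and 8 of the 10 were below 0. For nop4 replicate 1 read −0.34 and the other arrays 0.29 to 0.41.

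A member of no assigned complex, utp502, annotated only as a ribonucleoprotein complex protein, came next after nop58 and nop2. Its arrays read −0.99 and −0.54 in the first immunoprecipitation and −0.19 and −0.06 in the second. The mean was −0.45 ± 0.45, with an adjusted p of 0.0696, and both arrays of the first immunoprecipitation were lower than both of the second. It was called in 3 of 17 alternatives, with values from −0.73 to −0.34. The value rests on 5 probes, of which 1 coding probe read −3.06 on replicate 1. The 17 alternatives for the window called 6 different members in all, each on the Cy5 side. Beside nop58, nop2 and utp502 these were rrp45 (3 alternatives, −0.44 to −0.43), rrp40 (2, −0.40 to −0.39) and rrp1402, a large subunit gene (2, −0.42 to −0.41).

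The DNA helicase family genes lay at −0.09 ± 0.12 (rrp1) and 0.26 ± 0.11 (rrp2), both uncalled.

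The order of the members is a description. The smallest window mean that was called among all genes was 0.47 in size, and the 95% interval of a single gene reached 0.33 to either side of its mean. Across the 50 members the immunoprecipitations correlated at r = 0.32, against 0.57 across all genes. Members are not replicates, and they share the arrays. Members with values nearer to 0 than that were not separable from 0 with this number of arrays, and an uncalled value does not show that Cdk11 is absent.

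Over the coding span alone, 48 members could be measured and 1 was called higher in Cy5, nop58, where the background was 4.55% of 3847 genes. None was called higher in Cy3 (background 0.546%), and 6 (12.5%) passed an unadjusted p under 0.05, against 16.4% of all genes. The median was −0.09, against −0.03 for all genes and −0.92 for the 63 ribosomal protein genes, of which 41 were called. In the 500 bp upstream no member of 49 was called in either direction by limma, with backgrounds of 0.483% and 0.0966%, and 7 (14.3%) passed an unadjusted p under 0.05, against 12.2% of all genes. The upstream median was 0.05 against 0.11 for all genes. In the 500 bp downstream no member of 50 was called, with backgrounds of 1.96% in Cy5 and 0% in Cy3, and 7 (14.0%) passed an unadjusted p under 0.05, against 13.6% of all genes. The downstream median was −0.19, against −0.08 for all genes and −0.91 for ribosomal protein genes. Flank values rest on 1 to 3 probes. Loess within arrays called 5 members upstream and 2 downstream, all higher in Cy5, where it called 7.3% and 4.49% of all genes.

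Along the gene the members' medians stayed near those of all genes. Medians over the front, middle and end of the coding span, cut into 3 equal parts, were 0.07, −0.10 and −0.02 for members, 0.01, −0.05 and −0.06 for all genes, and −0.67, −1.07 and −1.17 for ribosomal protein genes. The difference between upstream and coding span had a median of 0.12 over 47 members, 30 of them above 0, against 0.17 over all 3714 genes. No member was called for it by limma, 2 genes in all were (0.0539%), and 6 members (12.8%) passed an unadjusted p under 0.05, against 14.2% of all genes.

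**Figure D4:**
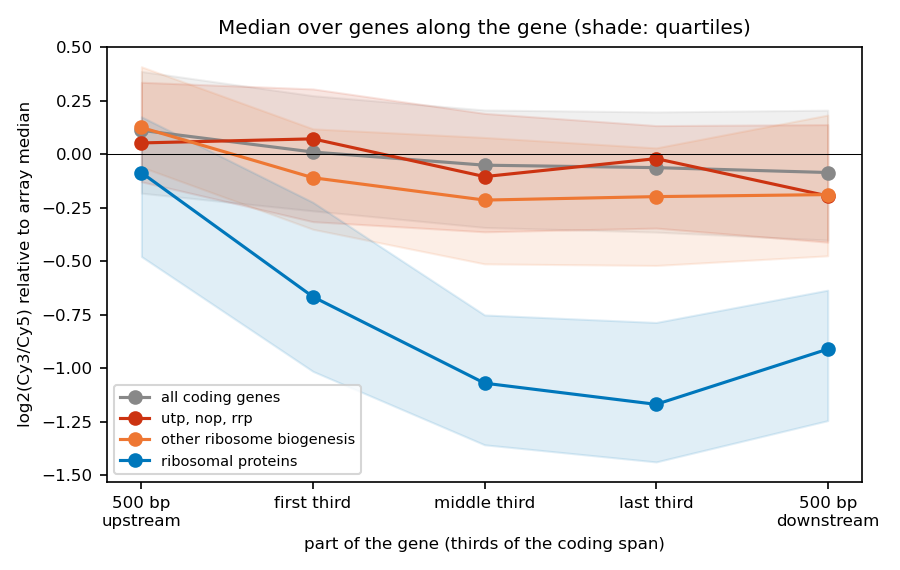
Median over genes of log2(Cy3/Cy5) relative to the array median (y axis) in 500 bp upstream, 3 parts of the coding span and 500 bp downstream (x axis), with shaded quartiles. The members stay between −0.19 and 0.07 and their quartiles overlap those of all genes, and the ribosomal protein genes run from −0.09 upstream to −1.17 at the end of the coding span.

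Among the other ribosome biogenesis genes, 9 were called in the window or the coding span, all higher in Cy5. Over the window these were 7 of 90 (7.78%, against 7.53% of all genes). Over the coding span they were 5 of 87 (5.75%, against 4.55%). The backgrounds of calls higher in Cy3 were 1.85% and 0.546%. The lowest was gar2, which encodes nucleolin, with arrays between −1.34 and −0.83, a mean of −1.02 ± 0.19 (SD, n = 2) and −1.40 over the coding span. Next was rlp7, the large subunit factor whose promoter holds HomolD, with arrays between −1.35 and −0.57, a mean of −0.89 ± 0.25 and −1.77 over the coding span. By contrast mpp10, whose promoter also holds HomolD, had 0.29 ± 0.04 and 0.24 over the coding span, uncalled in both. No value was available for rpa49, and a link between the string and the values was not tested. The H/ACA snoRNP gene gar1 had −0.64 ± 0.18, and nog1, a GTP-binding protein gene of large subunit assembly, had −0.58 ± 0.01. The genes ppp1, of the pescadillo family, and alb1 had −0.51 each. Over the window and over the coding span together, 3 genes were called in both, and the members' single such gene was nop58. The share of all genes called in either or in both was not counted.

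The arrays differed in quality. Median spot brightness was 2889 to 4862 in Cy5 and 5097 to 6341 in Cy3, and 1.00% to 16.3% of probes were left out as poor spots, most on replicate 1. Over all genes the window values of 2 arrays correlated at r from 0.35 to 0.49. The 2 pairs from the same precipitation stood at 0.37 (replicates 1 and 3) and 0.48 (2 and 4), and the 4 pairs from different ones at 0.36, 0.35, 0.47 and 0.49.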

How the data were processed

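Cdk11-HA chromatin immunoprecipitation was read on 4 two-colour arrays. Per the file headers, the deposited scanner files hold spot intensity values in GenePix format, as foreground means and local background medians without normalization. They also give, per the file headers, the percent of a spot's pixels above background or saturated, and the fraction of pixel variance shared by both channels. The table of log2 ratios deposited by the authors has no header on how it was made, and its making is not described in any source used here. It tracked the sign-turned loess-fitted scanner ratios at r from 0.996 to 0.999 and served as an alternative with its sign turned. Its column medians for replicates 1 to 4 were −0.019, −0.018, −0.031 and −0.0099.

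Tests used log2(Cy3/Cy5) of foreground means without background subtraction, and each array was centred on its median probe. Spots with a poor-quality mark from the scanner software were dropped, except those marked for saturation with a pixel R2 above 0.3. Duplicate arrays were averaged per probe, and genes needed 2 probes (1 in a flank). limma 3.58.1 (R 4.3.3) tested the mean of the 2 immunoprecipitations against 0, and the procedure was tested on simulated data. The number of arrays limits the precision. The files name no genome build. Probe positions were compared with ASM294v3 through the correlation of brightness with reference GC content, which was 0.39 to 0.41 on the chromosomes used and 0.010 on chromosome I from 3.7 Mb, which was left out. The correlation was highest at a shift of −50 bp on each chromosome used, and no shift was applied. In windows of 100000 bp the best shift was within 50 bp in 73 of 107 and within 250 bp in all 107, so probe positions are approximate to that extent.

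The members and lists were chosen with earlier results of these data known. Named were members called in any of the 4 windows, the 8 lowest and 8 highest, the extremes of each role, and up to 6 called genes of the other list. In addition nop56, rrp9, nop16, utp7, rrp45 and rrp1402, and fib1, snu13 and naf1 of the other list, were named after their values were seen. Alternatives were loess, loess with GC correction, the deposited values, normexp, mode centring, other probe filters, other flanks, the median over probes, the immunoprecipitation as a random block, and each array left out.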

Additional observations from a re-analysis of the deposited data

Results flagged for a closer look

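In 4 of 50 members tested, 1 array lay far from the other 3 by Dixon's test, and chance alone gives about 1 in 20. For rrp4 replicate 2 read −0.457 and the others −0.314 to −0.287. For nop16, a large subunit assembly gene, replicate 1 read −0.927 and the others 0.071 to 0.238. For nop4 replicate 1 read −0.336 and the others 0.291 to 0.412. For rrp46 replicate 1 read 0.889 and the others 0.055 to 0.156. In 3 of these 4 the array is replicate 1, on which 16.3% of probes were left out, and its part in these values was not tested.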

How the results depend on the processing

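Depth has no counterpart on these arrays, and the number of arrays limits every value. No paired analysis was possible because there is 1 group. No called value changed direction. The members' median ran from −0.18 to −0.02 over the alternatives for the window and from −0.22 to −0.01 for the coding span. Alternatives for the flanks were chosen after seeing the data. Causes of the changes below were not tested.

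Members called higher in Cy5 over the window numbered 2, and 4 with loess, 6 with loess and GC correction, 0 to 1 with an array left out, and 1 each with the deposited values, mode centring, probes well above background, probes inside no other gene and the median over probes. Over all genes these calls numbered 322 of 4277, and also rose, to 455 with loess and 513 with loess and GC correction. Over the coding span members called higher in Cy5 numbered 1, and 0 with loess and with the median over probes, 2 with at least 3 probes and with the random block, 3 with normexp, 7 with loess and GC correction, and 0 to 1 with an array left out. All genes so called numbered 175 of 3847, 217 with normexp and 318 with loess and GC correction. Such genes numbered 207 of 3267 with at least 3 probes and 215 of 3831 with the random block. Members called higher in Cy3 over the coding span numbered 0, and 1 with loess, the deposited values and normexp, 2 with loess and GC correction, and 0 to 1 with an array left out. Members called upstream in Cy5 numbered 0, and 5 with loess. Downstream they numbered 0 in each direction, and in Cy5 2 with loess, 4 with the deposited values and 0 to 1 with an array left out, and in Cy3 1 with the deposited values and 0 to 1 with an array left out.

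Over all genes, window calls in Cy5 numbered 322, and 206 with the deposited values, 187 with mode centring, 141 with probes well above background, 513 with loess and GC correction and 52 to 282 with an array left out (52 without replicate 3). Window calls in Cy3 numbered 79, and 31, 1, 7 and 151 in the same order, 38 with poor spots kept, 50 with the median over probes and 0 to 58 with an array left out. Coding-span calls in Cy5 numbered 175, and 109 with loess, 112 with the median over probes, 318 with loess and GC correction and 99 to 165 with an array left out. Coding-span calls in Cy3 numbered 21, and 88 with loess, 186 with the deposited values, 57 with normexp, 2 with mode centring, 39 with at least 1 probe, 38 with at least 3, 4 with poor spots kept, 3 with the median over probes, 34 with the random block, 307 with loess and GC correction and 3 to 21 with an array left out. Upstream calls were 20 in Cy5 and 4 in Cy3, and 302 and 100 with loess, 0 and 0 with the deposited values, and 7 to 39 and 0 to 13 with an array left out. Downstream calls were 82 and 0, and 188 and 11 with loess, 502 and 42 with the deposited values, and 56 to 165 and 0 to 29 with an array left out.

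The coding-span call of nop58 held in 10 of 16 alternatives, with limma adjusted p up to 0.129.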
